A study of Mus musculus with 6 samples.

Results

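Fatty acid oxidation was followed in mouse liver through 35 genes of that pathway and of the targets of PPAR alpha, chosen by name from 24421 gene symbols counted. Of these, 18 encode mitochondrial proteins, 9 encode peroxisomal proteins and 8 act at other sites (nucleus, cytosol, endoplasmic reticulum, cell surface or blood). All 35 were in the tables, and 34 had enough reads to be tested. The exception was Cpt1b, the muscle form of carnitine palmitoyltransferase, with 0, 1 and 2 counts in AS replicates 1, 2 and 3 and 0 in each SS library. Of its 50-base transcript stretches, 78.6% also occur in Gm44502, an overlapping gene on the same strand, so these counts may understate its reads.

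The samples were total RNA from the liver of Townes mice at 7 months of age, 3 libraries per genotype. Townes mice are a model of sickle cell disease in which the germ line has human globin genes instead of the adult mouse ones, and both groups carry the alpha-globin replacement Hbatm1(HBA)Tow. The SS mice, homozygous for the sickle allele Hbbtm2(HBG1,HBB*)Tow, were compared with AS mice, which carry that allele and the non-sickle allele Hbbtm3(HBG1,HBB)Tow. Both groups also carry a human gamma-globin gene, and no group with the adult mouse globin genes intact enters the comparison. Whether each library comes from its own animal is not stated in the labels, nor are sex, feeding state or time of collection. The p-values therefore reflect only the spread among these 6 libraries, which may be technical.

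Long-chain fatty acids are linked to coenzyme A, passed into mitochondria by the carnitine shuttle and shortened there by repeated cycles of dehydrogenation, hydration, a further dehydrogenation and thiolytic cleavage. Peroxisomes shorten very long and branched chains and hand the products on. In the fasting liver the acetyl-CoA that results is turned largely into ketone bodies. PPAR alpha is a nuclear receptor that binds fatty acids and, together with a retinoid X receptor, activates many genes of both organelles through a repeat of the hexamer AGGTCA with 1 base between the copies.

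Levels are given as CPM, a gene's share of the gene reads of its library after trimmed-mean scaling, in the order of replicates 1, 2 and 3. Differences are log2 changes of SS minus AS fitted by edgeR, with a standard error (SE), and a gene was called at a Benjamini-Hochberg adjusted p under 0.05 over the 12622 genes tested.

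Most genes of the set had lower fitted values in SS liver, but only Acot3, a peroxisomal acyl-CoA thioesterase, passed the test. Of the 34 tested, 1 was called lower and 0 higher by edgeR, where 0.967% of all genes were called, 0.0555% lower and 0.911% higher. At an unadjusted p under 0.05, 4 members were lower and 0 higher, against 3.58% and 9.12% of all genes. DESeq2 also called 1 member, Acot3, lower and 0 higher, against 0.738% and 2.86% of all genes, and limma-voom called 0 members. Fitted values were below 0 for 30 of 34, against 43.7% of all genes, and the median was -0.42 beside 0.082 for all genes. Scaling by library totals alone moved the median of all genes to 0.36, and 24 of 34 members were then below 0, with a median of -0.13. In 17 members all 3 SS libraries lay below all 3 AS libraries, and in none above, against 9.04% and 12.1% of all genes. That separation, here and below, is on the trimmed-mean scale. With library totals alone, SS replicate 3 rose above the lowest AS library in several of these members, such as Acadm, Acadl and Etfdh. In bulk liver RNA, fewer cells of a type and less RNA per cell cannot be told apart.

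That background depends on abundance. Among the 1601 genes that reach 100 CPM in either genotype's mean, 81.2% had fitted values below 0, 31.9% had SS libraries wholly below AS libraries, and the median was -0.35. The 24 members at that level included 22 below 0 (91.7%) and 15 with separated groups (62.5%), with a median of -0.50. At an unadjusted p under 0.05, 3 of the 24 were lower (12.5%) against 15.3% of genes that abundant, and 0 were higher against 2.69%. Lower fitted values were thus common among abundant genes in general, and the difference between the members and those genes was not tested.

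**Figure D1:**
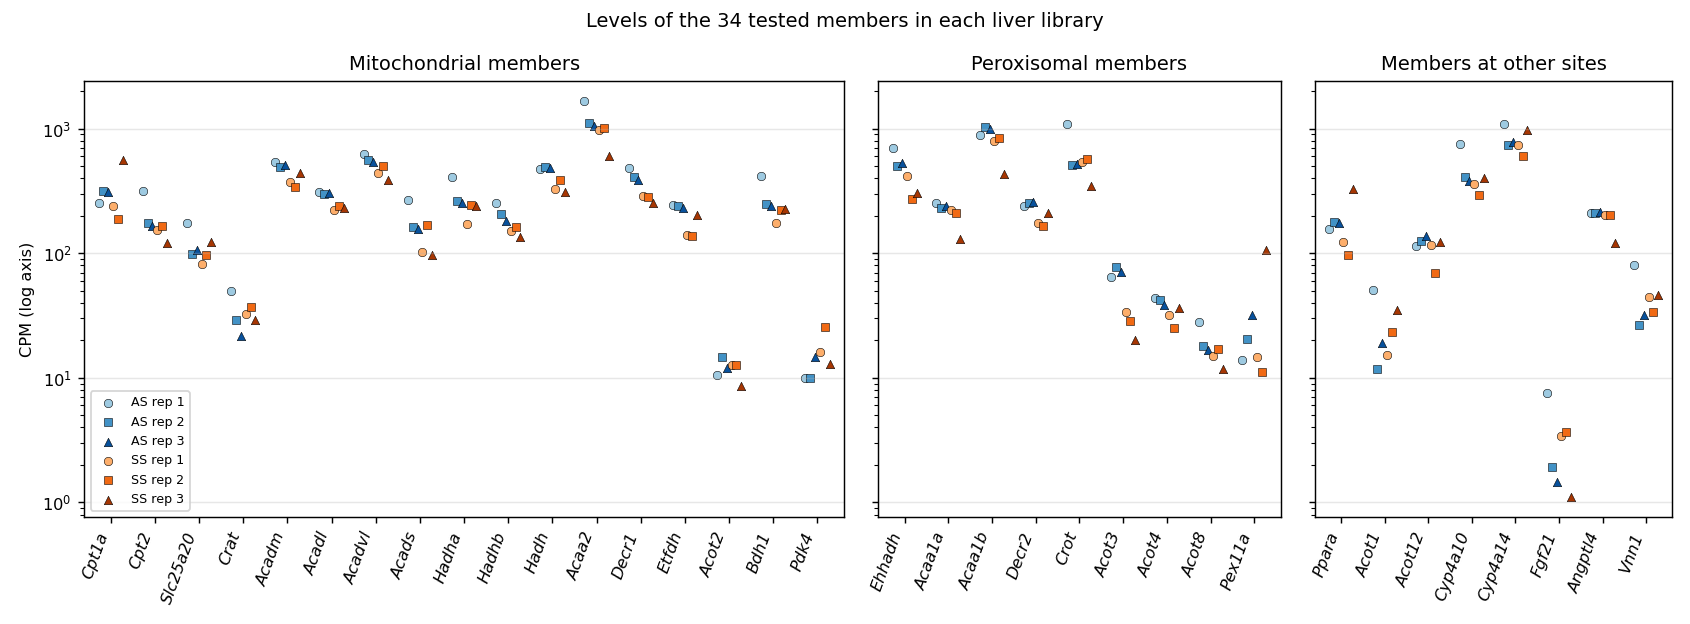
CPM of the 34 tested members on a log axis, 1 symbol per library (blue, AS; orange, SS), with mitochondrial, peroxisomal and other genes in separate panels. Most orange symbols lie a little below the blue ones, those of Acot3 lie well below, and those of SS replicate 3 stand far above for Ppara, Cpt1a and Pex11a.

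The genes of the carnitine shuttle did not separate the genotypes. Cpt1a, the liver enzyme of the outer membrane that commits fatty acids to oxidation and is inhibited by malonyl-CoA, had 252, 317 and 311 CPM in AS and 239.6, 189 and 565 CPM in SS. SS replicate 3 was the highest of the 6 libraries and SS replicate 2 the lowest, so the groups overlapped (fitted log2 change 0.18, SE 0.388, edgeR adjusted p = 0.869). Without SS replicate 3 the change was -0.46 (edgeR adjusted p = 0.347). Cpt2, which reforms acyl-CoA on the matrix side, Slc25a20, the translocase of the inner membrane, and Crat, an acetyltransferase of mitochondria and peroxisomes, had log2 changes of -0.57, -0.34 and -0.030, which without AS replicate 1 were -0.22, -0.040 and 0.37. In all 3 of them AS replicate 1 was the highest library, at 317, 176 and 50.1 CPM, and the groups overlapped.

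The acyl-CoA dehydrogenases take the first step of each cycle and differ in the chain length they accept. Acadvl, for very long chains, had 627, 564 and 543 CPM in AS and 442, 506 and 390.2 CPM in SS. Acadl, for long chains, had 309, 298 and 304 CPM in AS and 222, 238 and 233 CPM in SS. Acadm, for medium chains, had 538, 489 and 511 CPM in AS and 375, 339.7 and 443 CPM in SS. In these 3 genes every SS library lay below every AS library, with similar log2 changes of -0.37, -0.39 and -0.41 and edgeR adjusted p of 0.546, 0.499 and 0.509. Acads, for short chains, had -0.67 (SE 0.318), the lowest of the mitochondrial members (-0.38 without AS replicate 1), but SS replicate 2, at 169 CPM, lay within the AS range of 157 to 268 CPM.

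The later steps of the cycle gave the same picture of separated groups without a call. Hadha, the alpha subunit of the trifunctional protein that hydrates and dehydrogenates long chains, had 410.3, 263 and 255 CPM in AS and 172, 242 and 241 CPM in SS. Hadhb, its thiolase subunit, had 255, 206 and 183 CPM in AS and 152, 164 and 136 CPM in SS, and the log2 changes of the pair were -0.50 and -0.51 (edgeR adjusted p = 0.491 and 0.425). Without AS replicate 1 they were -0.26 and -0.38. For Hadha the gap between the groups was narrow, with SS replicates 2 and 3 close to AS replicates 2 and 3. Hadh, the hydroxyacyl-CoA dehydrogenase for shorter chains, had 478, 497 and 482 CPM in AS and 326, 385 and 312 CPM in SS (fitted log2 change -0.51, SE 0.241, edgeR adjusted p = 0.413). Acaa2, the mitochondrial thiolase, was the most abundant member per kilobase of exon, at 843 CPM per kb in AS, and had 1673, 1115 and 1047 CPM in AS and 975, 1012 and 606 CPM in SS. Its groups did not overlap, with AS replicate 1 well above and SS replicate 3 well below the other 4 libraries (fitted log2 change -0.56, SE 0.310, edgeR adjusted p = 0.477). Leaving out AS replicate 1 gave -0.33, and leaving out SS replicate 3 gave -0.37.

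Hadha and Hadhb lie head to head on chromosome 5, with RefSeq starts 273 bases apart, so the 300-base promoter windows of both genes share 228 bases. The 250 bases before the Hadhb start are shown because, by the RefSeq starts, 1 stretch of DNA lies before both subunit genes. It lies at chr5:30155003-30155252 (GRCm38.p6, plus strand, 5′ to 3′), and no base is in capitals because no match to the repeat described for the thioesterases was found in it. In the GENCODE M21 annotation Hadha, on the minus strand, begins at 30155162 and Hadhb at 30155248. By those starts, part of the printed stretch lies within Hadha.
Hadhb: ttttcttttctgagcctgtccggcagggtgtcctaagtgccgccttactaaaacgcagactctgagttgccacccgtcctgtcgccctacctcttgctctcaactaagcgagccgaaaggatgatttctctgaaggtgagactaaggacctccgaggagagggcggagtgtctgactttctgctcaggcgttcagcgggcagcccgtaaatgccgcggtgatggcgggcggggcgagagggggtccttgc

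Of the remaining mitochondrial genes, Decr1 and Etfdh had the lowest p-values. Decr1, a dienoyl-CoA reductase needed for unsaturated chains, had 479.7, 408 and 391 CPM in AS and 288, 285 and 253 CPM in SS (fitted log2 change -0.63, SE 0.243, unadjusted p = 0.0259, adjusted p = 0.320 by edgeR). Etfdh, which passes electrons from the acyl-CoA dehydrogenases to ubiquinone, had 243, 240.5 and 232 CPM in AS and 139, 137 and 203 CPM in SS (fitted log2 change -0.58, SE 0.256, edgeR adjusted p = 0.387). Both had every SS library below every AS library. With AS replicate 1 and SS replicate 3 both omitted, Etfdh was called lower (fitted log2 change -0.78, edgeR adjusted p = 0.0228). In that fit 2.49% of all genes were called lower and 2.72% higher. The AS libraries it kept, replicates 2 and 3, were the closest pair within a genotype. With those summed and every library kept, edgeR called 0 members.

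Bdh1, which makes the ketone body beta-hydroxybutyrate, had 415, 247 and 239.7 CPM in AS and 174, 222 and 225 CPM in SS (fitted log2 change -0.54, edgeR adjusted p = 0.470), with AS replicate 1 far above the rest and a change of -0.24 without it. Pdk4, the kinase that shuts off pyruvate dehydrogenase and a well known PPAR alpha target, had 9.90, 9.99 and 14.8 CPM in AS and 16.2, 25.6 and 12.8 CPM in SS. It was 1 of 2 mitochondrial members with a fitted value above 0 (0.65, SE 0.342, edgeR adjusted p = 0.455), the other being Cpt1a, and SS replicate 3 lay within the AS range. Without SS replicate 2 its change was 0.31. Acot2, a matrix thioesterase, had 8.53 to 14.8 CPM over the 6 libraries and a log2 change of -0.14.

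**Figure D2:**
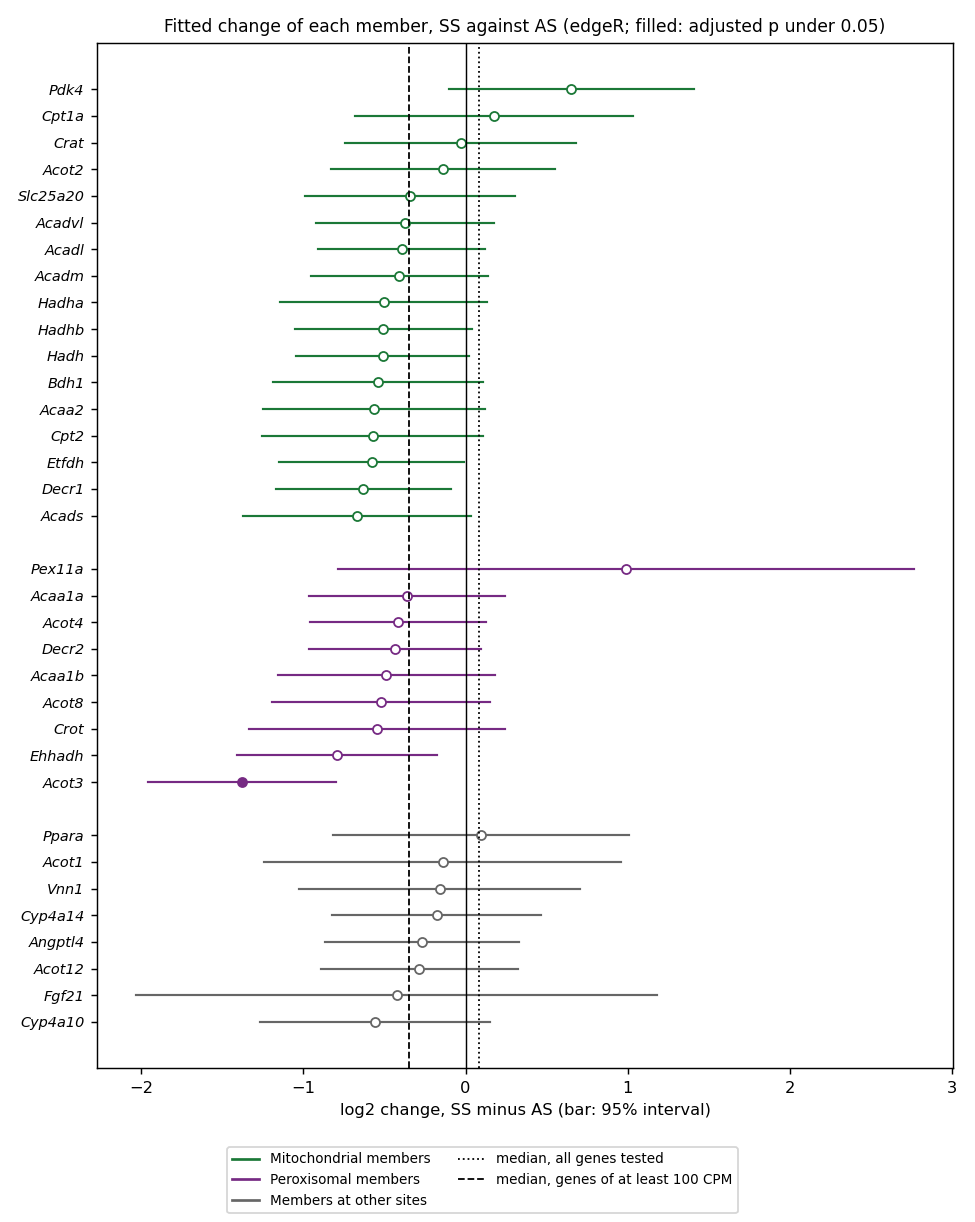
Log2 change of SS minus AS for each tested member with its 95% interval, grouped by site, beside the medians of all genes tested (dotted) and of genes of at least 100 CPM (dashed). Acot3, the filled point at -1.38, is called, and the intervals of Ehhadh, Decr1 and Etfdh also lie below 0 before adjustment.

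Acot3 was called lower in the SS libraries, though several other fits did not call it. This gene, on chromosome 12 (84052144 to 84060402, mm10), encodes a peroxisomal thioesterase that releases fatty acids from long-chain acyl-CoA. It had 64.8, 77.3 and 70.7 CPM in AS and 33.8, 28.4 and 19.95 CPM in SS, so each SS library was far below each AS library. The means were 71.0 ± 6.24 and 27.4 ± 6.97 CPM (SD, n = 3), a fall of 2.60-fold, or -1.38 on the log2 scale (SE 0.262, 95% interval -1.96 to -0.80, edgeR adjusted p = 0.0434). DESeq2 gave an adjusted p of 0.000355. The adjusted p was 0.0600 by limma-voom, and by edgeR 0.0504 with upper-quartile factors, 0.0790 with library totals alone and 0.201 with AS replicates 2 and 3 summed, none of which is a call. Over the 6 fits with a library left out the change ran from -1.56 to -1.20, but the call held in 1 of them, without SS replicate 3, and the edgeR adjusted p ranged from 0.0354 to 0.215.

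The neighbours of Acot3 in the thioesterase cluster on chromosome 12 did not pass the test. Acot4, a peroxisomal enzyme that acts on succinyl-CoA, had 43.8, 42.0 and 38.4 CPM in AS and 31.8, 25.0 and 36.2 CPM in SS, all SS libraries lower (fitted log2 change -0.42, SE 0.245, edgeR adjusted p = 0.499). Acot1, the cytosolic member, ranged from 11.8 CPM in AS replicate 2 to 50.6 CPM in AS replicate 1, which spans all SS values. Transcripts of this cluster overlap or resemble each other: 19.1% of the 50-base stretches in Acot3 transcripts, 19.2% in Acot1 and 27.7% in Acot2 also occur in transcripts of another gene. A readthrough gene model, Gm49366, and an antisense gene, 4732463B04Rik, overlap both Acot3 and Acot4 and were not analysed here. Counts in these stretches are uncertain, since the strand setting of the counting is not given in the sources used here.

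Promoter windows of 300 bases were found in RefSeq (GRCm38.p6) for 27 of the 35 members, and not for Cpt1b, Crat, Acaa2, Decr1, Cyp4a10, Cyp4a14, Angptl4 and Vnn1. The repeat, AGGTCA followed by any 1 base and AGGTCA again, was searched on both strands. It occurred exactly in none of the 27, and in 0.0396% of the 32851 windows of the table. With up to 2 mismatches it occurred in 3 of the 27 (11.1%), Acot4, Acot12 and Slc25a20, and in 3.86% of all windows. The best match, with 1 mismatch, began 110 bases before the start of Acot12, on the minus strand. In Slc25a20 the match AGGTGAAAGGTCG began 6 bases after the start. The 250 bases before the starts of Acot3, the gene called lower, and of Acot4 and Acot12, the thioesterase genes that hold a match, are shown to set them side by side. They lie at chr12:84051894-84052143, chr12:84038129-84038378 and chr13:91741271-91741520, all on the plus strand and written 5′ to 3′, with the match in capitals. For Acot3 the table gives 2 starts, and the window of the first is shown.
Acot3: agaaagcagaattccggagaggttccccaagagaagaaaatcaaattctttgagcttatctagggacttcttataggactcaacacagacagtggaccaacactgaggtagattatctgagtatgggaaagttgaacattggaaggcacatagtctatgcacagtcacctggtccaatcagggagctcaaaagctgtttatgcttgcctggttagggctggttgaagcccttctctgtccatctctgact
Acot4: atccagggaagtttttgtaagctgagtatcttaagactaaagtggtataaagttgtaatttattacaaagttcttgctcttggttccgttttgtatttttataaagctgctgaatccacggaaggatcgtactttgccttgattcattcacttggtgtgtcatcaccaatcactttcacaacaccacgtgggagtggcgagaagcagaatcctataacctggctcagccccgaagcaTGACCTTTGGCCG
Acot12: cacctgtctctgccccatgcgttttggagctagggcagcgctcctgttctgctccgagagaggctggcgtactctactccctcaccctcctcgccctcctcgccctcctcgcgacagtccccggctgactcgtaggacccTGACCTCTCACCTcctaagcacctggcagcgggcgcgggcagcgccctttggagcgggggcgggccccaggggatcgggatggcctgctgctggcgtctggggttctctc

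A match is a description of these letters, and its absence says only that they are not in this window. Acot4, Acot12 and Slc25a20, with a match, had log2 changes of -0.42, -0.29 and -0.34. Members with a window but no match ran from -1.38 in Acot3 to 0.99 in Pex11a. A link between match and change was not tested.

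Among the enzymes of the peroxisomal cycle, Ehhadh had the lowest p. Ehhadh, the bifunctional enzyme that hydrates and dehydrogenates the chain, had 697, 501 and 526 CPM in AS and 419, 275 and 302 CPM in SS (fitted log2 change -0.79, SE 0.279, unadjusted p = 0.0169, adjusted p = 0.276 by edgeR). The groups did not overlap, and replicate 1 was the highest library of each. Acaa1a, a peroxisomal thiolase, had 255, 232 and 238 CPM in AS and 222, 212 and 130.4 CPM in SS. Its sister gene Acaa1b had 896, 1029.5 and 989.8 CPM in AS and 796, 848 and 435 CPM in SS. In both thiolase genes SS replicate 3 was the lowest library by a wide margin, and SS replicates 1 and 2 lay below the AS range by less than SS replicate 3 did. Their log2 changes were -0.36 and -0.49 (edgeR adjusted p = 0.596 and 0.519), or -0.17 and -0.25 without SS replicate 3, with 30.5% of the 50-base stretches of Acaa1b found in another gene, mostly Acaa1a, so reads of the pair may be lost or misplaced.

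Decr2, the peroxisomal dienoyl-CoA reductase, had 238, 253 and 256 CPM in AS and 176, 166 and 211 CPM in SS (fitted log2 change -0.43, SE 0.239, edgeR adjusted p = 0.479), again with every SS library below every AS library. Crot, the octanoyltransferase that hands shortened chains to carnitine, ranged from 344 CPM in SS replicate 3 to 1088 CPM in AS replicate 1, and the other 4 libraries lay between 508 and 568 CPM. Its log2 change of -0.55 was -0.10 without AS replicate 1. Acot8, a peroxisomal thioesterase of broad range, had a log2 change of -0.52 with overlapping groups (-0.26 without AS replicate 1). Pex11a, which promotes peroxisome division and is named here after its values were seen, had 13.9, 20.5 and 31.7 CPM in AS and 14.6, 11.2 and 105 CPM in SS. It was the only peroxisomal member with a fitted value above 0 (0.99, SE 0.782), which rests on SS replicate 3 and was -0.79 without it.

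**Figure D3:**
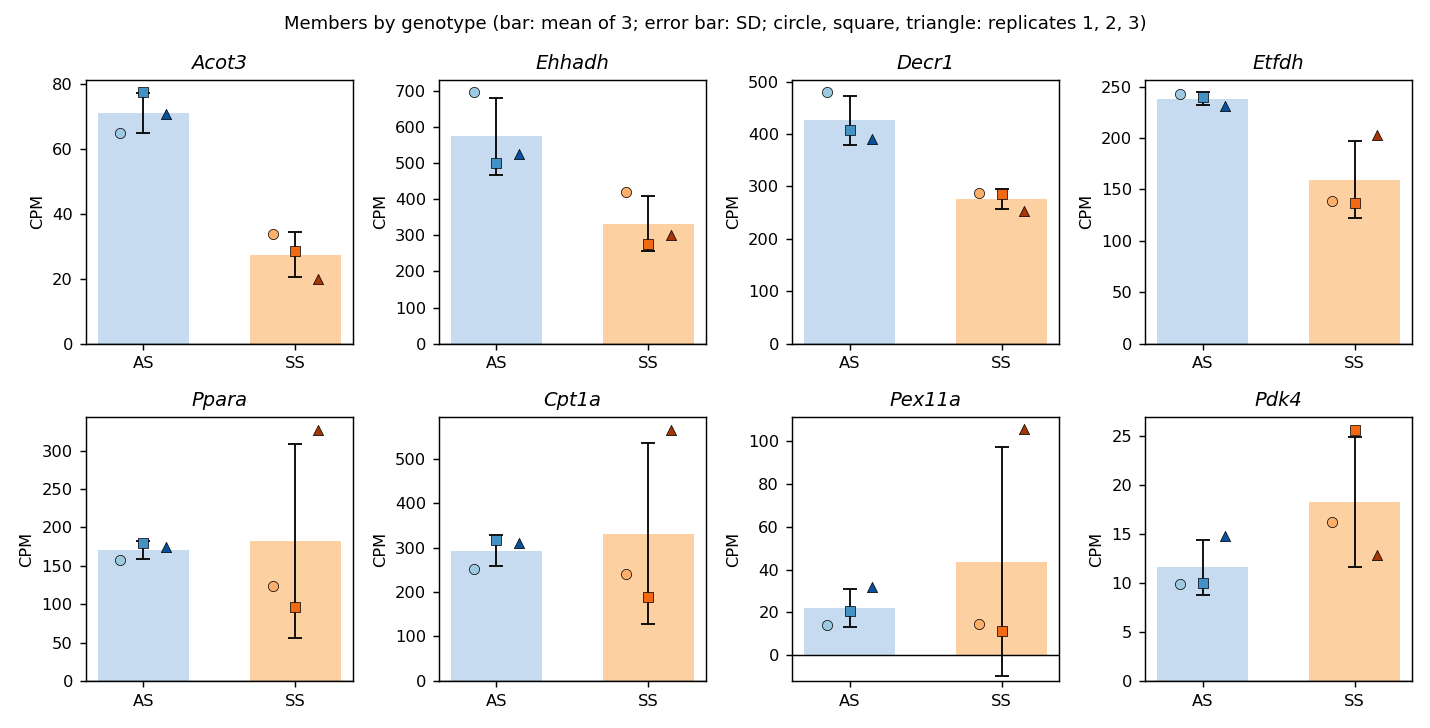
CPM of 8 members by genotype, with bars for the mean of 3 libraries, error bars for the SD and symbols for replicates. Acot3, Ehhadh, Decr1 and Etfdh separate the genotypes, whereas Ppara, Cpt1a and Pex11a have 1 SS library, replicate 3, far above the other 5.

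The receptor gene and the members outside both organelles did not separate the genotypes, apart from Angptl4. Ppara itself had 158, 179.9 and 174 CPM in AS and 123, 96.4 and 327 CPM in SS (fitted log2 change 0.097, SE 0.412, edgeR adjusted p = 0.937). SS replicate 3 was the highest library and SS replicates 1 and 2 the lowest, and without SS replicate 3 the change was -0.65 (edgeR adjusted p = 0.192). Cyp4a10, a microsomal enzyme that oxidises the far end of fatty acids and a classical PPAR alpha target, had 761, 412 and 381 CPM in AS and 361, 292 and 402 CPM in SS (fitted log2 change -0.56, edgeR adjusted p = 0.491). Without AS replicate 1 it was -0.18, and 29.8% of its 50-base stretches occur in another gene, mostly Cyp4a32. Its neighbour Cyp4a14 had 1094, 745 and 781 CPM in AS and 735, 604 and 976 CPM in SS, so that SS replicate 3 stood above 2 of the AS libraries (fitted log2 change -0.18, SE 0.291, or 0.0076 without AS replicate 1).

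Fgf21, a hormone that the liver releases in fasting, had the lowest level of the tested members, with 7.60, 1.93 and 1.47 CPM in AS and 3.43, 3.70 and 1.10 CPM in SS, or 66, 12 and 18 counts against 26, 51 and 14. AS replicate 1 alone was high, and the change of -0.43 (SE 0.725) was 0.68 without it. Angptl4, a secreted inhibitor of lipoprotein lipase, had 209, 212 and 214 CPM in AS and 201, 204 and 122 CPM in SS. Its groups did not overlap, but SS replicates 1 and 2 lay just under the AS values and SS replicate 3 far lower (fitted log2 change -0.27, or -0.074 without SS replicate 3, edgeR adjusted p = 0.699). Acot12, a cytosolic enzyme that hydrolyses acetyl-CoA, had a log2 change of -0.29, and Vnn1, a pantetheinase at the cell surface, had -0.16, with overlapping groups in each.

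By site, the 17 tested mitochondrial members had a median log2 change of -0.50, 15 of them below 0 and 10 with separated groups, and -0.32 without AS replicate 1. The 9 peroxisomal members had a median of -0.49, 8 below 0 and 6 with separated groups. The 8 members at other sites had -0.22, 7 below 0 and 1 with separated groups, but this direction turned without AS replicate 1 (0.022, 3 of 8 below 0) and with library totals alone (0.071, 3 of 8). Over all genes, 43.7% were below 0 and 9.04% had SS libraries wholly below AS libraries. Among genes of at least 100 CPM these shares were 81.2% and 31.9%. Summed over members, mitochondrial genes held 4974 to 6511 CPM in AS and 3904 to 4227 CPM in SS, and peroxisomal genes 2681 to 3324 CPM in AS and 1596 to 2246 CPM in SS, with no overlap for either sum. Sums over all genes of at least 100 CPM did not overlap either (815010 to 979500 CPM in AS, 587610 to 770420 CPM in SS), nor did those over all genes tested. As a share of unscaled gene reads, all members together held 0.887% to 1.03% in AS and 0.776% to 0.921% in SS, which overlap. The ratio of the peroxisomal to the mitochondrial sum was 0.511, 0.522 and 0.541 in AS and 0.575, 0.509 and 0.399 in SS. SS replicate 3 had the lowest ratio and SS replicate 1 the highest, so the ratio did not separate the genotypes.

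Libraries of the same genotype also differed from each other. AS replicate 1 was the highest of the 6 libraries in 23 of the 34 tested members, among them 13 of the 17 mitochondrial ones, and exceeded the mean of the other AS libraries by over 1.5 times in 13 members. SS replicate 3 was the lowest in 15 members and yet the highest in Cpt1a, Pex11a and Ppara. Those 3, with Acot1, were the 4 members in which SS replicate 3 exceeded the mean of the other SS libraries by over 1.5 times, by 2.63, 8.17, 2.98 and 1.81 times. AS replicates 2 and 3 were close, with a median absolute difference of 0.0698 on the log2 scale over the tested members, against 0.215 to 0.510 in the other pairs within a genotype. Without AS replicate 1 the number of members with fitted values below 0 went from 30 to 25 of 34 and the median to -0.28. Omitting both AS replicate 1 and SS replicate 3 gave 28 of 34, with a median of -0.29.

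Fatty acid synthesis and clock genes also differed between libraries of a genotype. The summed CPM of 10 fatty acid synthesis genes, which include Fasn and Scd1, was 1849 in AS replicate 1, the lowest, against 4061 to 6648 in the other 5. Scd1, with 9056 to 67144 counts, made up most of the sum in each library. For 12 genes of the circadian clock and its outputs the sums were 214, 597 and 621 CPM in AS and 353, 236 and 646 CPM in SS. Such sums hide opposite differences of single clock genes. Dbp had 69, 754 and 1528 counts in AS and 338, 222 and 871 in SS, and Arntl 94, 14 and 29 in AS and 78, 153 and 39 in SS. None of the genes of either list was called by edgeR (unadjusted p under 0.05 in 2 and 1 of them) or by DESeq2. The part of these lists in the values of the oxidation genes was not tested.

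**Figure D4:**
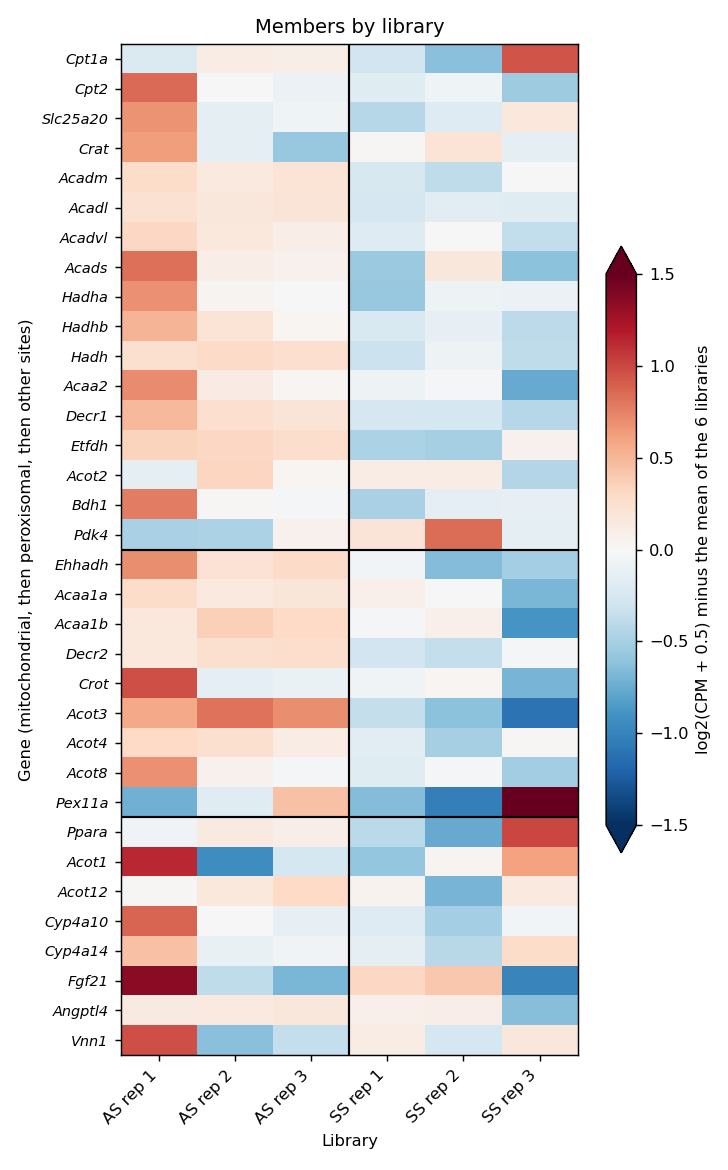
Log2(CPM + 0.5) of each tested member in each library minus its mean over the 6 libraries, with colours that saturate at 1.5 in either direction. AS replicate 1 is the highest library of 23 genes, and SS replicate 3 is the lowest library of 15 genes but the highest for Cpt1a, Pex11a and Ppara.

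Beyond the members, 105 further genes were listed by role. They cover fatty acid oxidation and its control, but also neighbouring mitochondrial and peroxisomal pathways and peroxisome formation. Of the 101 tested, edgeR called 0, DESeq2 called 2 higher and 3 lower and limma-voom called 0. At an unadjusted p under 0.05, 29 were lower and 3 higher, against 3.58% and 9.12% of all genes. Among the 29 were Hibch, Mcee, Pcca, Pccb and Acadsb, of amino acid and propionate breakdown. Cat, Ephx2, Hao2, Pex3, Pex7, Pex11g, Pex14 and Pex16 were among them too. The shares given for these lists are thus not those of fatty acid oxidation alone. The median of the 101 was -0.37, with 77 below 0, against 43.7% of all genes. Of the 51 at 100 CPM or more, 19 (37.3%) were lower at an unadjusted p under 0.05, against 15.3% of all genes that abundant. Omitting both AS replicate 1 and SS replicate 3, edgeR called 14 of the 100 then tested lower and 3 higher, against 2.49% and 2.72% of all genes in that fit. The AS libraries it kept, replicates 2 and 3, were the closest pair within a genotype. With those summed and every library kept, edgeR called 0 of the other pathway genes.

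The other mitochondrial genes had a median of -0.54, with 20 of 21 below 0 and 10 at an unadjusted p under 0.05. Hibch, an enzyme of valine breakdown, had the lowest p of them (91.9, 115 and 104 CPM in AS against 60.0, 60.8 and 58.0 CPM in SS, fitted log2 change -0.80, edgeR adjusted p = 0.154) and was called by DESeq2. The other peroxisomal genes had a median of -0.39, with 30 of 32 below 0 and 11 at that p. Nudt7, a peroxisomal hydrolase of coenzyme A, had 263, 281 and 259 CPM in AS and 159, 105 and 75.5 CPM in SS, a log2 change of -1.24 (SE 0.302), with every SS library below every AS library. It missed the threshold in edgeR (adjusted p = 0.105) and passed it in DESeq2.

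Among genes of ketone body metabolism, Oxct1, the enzyme of ketone use that hepatocytes largely lack, was higher in every SS library, at 4.84, 7.09 and 4.91 CPM in AS and 18.5, 19.1 and 12.8 CPM in SS (fitted log2 change 1.59, SE 0.331, edgeR adjusted p = 0.058) and was called by DESeq2. The list of 6 had a median of -0.43, or -0.21 without AS replicate 1.

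Among genes of uptake and activation, Cd36, a fatty acid receptor of macrophages, endothelium and hepatocytes, was higher in every SS library, at 60.3, 83.4 and 81.2 CPM in AS and 138, 151 and 286 CPM in SS (fitted log2 change 1.36, SE 0.323, edgeR adjusted p = 0.0948) and was called by DESeq2. Acsl1, the main acyl-CoA synthetase of hepatocytes, had 777, 585 and 604 CPM in AS and 419.8, 351 and 499 CPM in SS, all SS libraries lower (fitted log2 change -0.63, edgeR adjusted p = 0.365). Fabp1, the fatty acid carrier of the hepatocyte cytosol, had 8715, 5318 and 4463 CPM in AS and 3343, 4594 and 1996 CPM in SS (fitted log2 change -0.90, edgeR adjusted p = 0.364), or -0.57 without AS replicate 1. Over the 11 genes the median was -0.27, 8 below 0, and -0.45 without SS replicate 2.

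The regulators were the list with the highest median, 0.41, with 10 of 14 above 0, but without SS replicate 3 it was -0.0024, with 7 of 14 below 0. Ppargc1b, a coactivator, had the lowest p (fitted log2 change 1.35, edgeR adjusted p = 0.283), its relative Ppargc1a had 0.89 (0.41 without SS replicate 3), and Rxra, the partner receptor of PPAR alpha, had -0.14. Genes of omega oxidation had a median of -0.30 over 9, which ran from -0.56 without SS replicate 1 to -0.18 without AS replicate 3, with Cyp4f14 lowest in p (fitted log2 change -0.90, edgeR adjusted p = 0.210, called by DESeq2). Genes listed for malonyl-CoA and pyruvate dehydrogenase control had -0.040 over 8, which ran from -0.34 without SS replicate 3 to 0.041 without AS replicate 2. Txnip, which is not itself an enzyme of either, was lowest in p (fitted log2 change -0.77, edgeR adjusted p = 0.350).

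**Figure D5:**
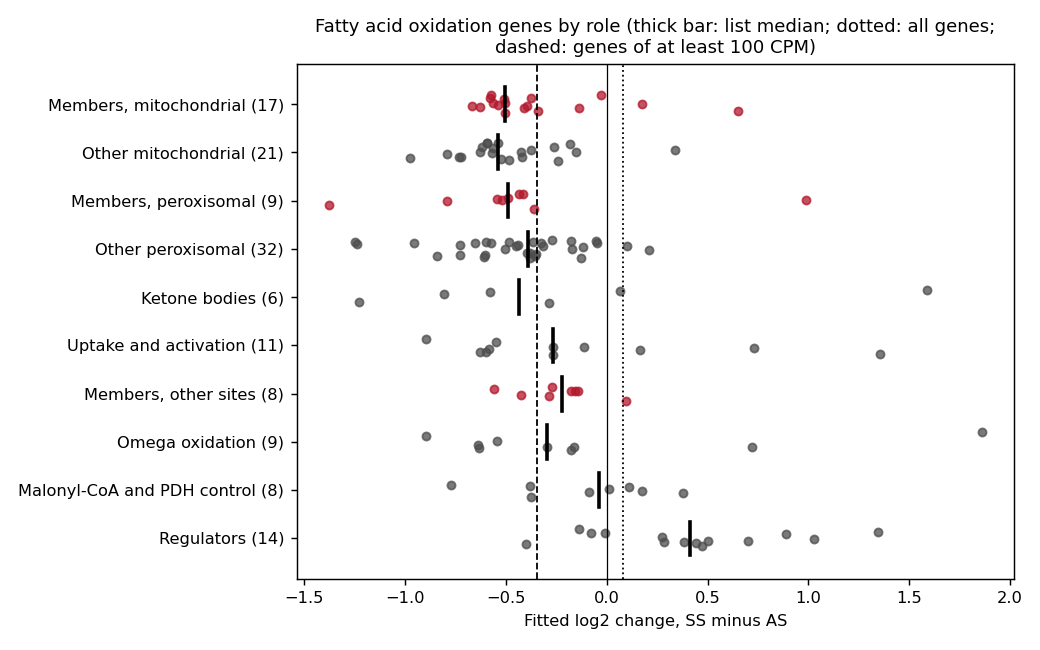
Fitted log2 changes of SS minus AS by role, 1 point per tested gene (red, members; grey, other pathway genes), with the number tested in brackets and list medians as thick bars. The mitochondrial and peroxisomal lists have medians between -0.54 and -0.39, below the dashed line of abundant genes, and the regulators, whose median rests on SS replicate 3, lie to the right.

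Hepatocyte markers were present in every library, except Ass1 with 1 to 5 counts. Of the 11 tested, 10 had fitted values below 0, with a median of -0.35 and sums of 91555 to 133750 CPM in AS and 77052 to 106570 CPM in SS, which overlap. The summed members came to 9.20 to 10.3% of the summed hepatocyte markers in AS and 7.23 to 10.1% in SS, which overlap. Summed markers of several other cell types were higher in SS. Erythroid markers summed to 36.2 to 45.9 CPM in AS and 236 to 466 CPM in SS, with 5 of 10 called higher by edgeR. Of these 10, Klf1 alone had a fitted value below 0 (-0.86, edgeR adjusted p = 0.491). Genes of dividing cells summed to 15.8 to 19.7 and 117 to 194 CPM (9 of 12 called higher), neutrophil markers to 3.84 to 6.56 and 23.8 to 87.6 CPM (2 of 6) and macrophage markers to 488 to 635 and 562 to 1429.6 CPM (5 of 12, sums overlapping). The macrophage genes called were Gpnmb, Trem2, Itgax, Ccr2 and Mmp12, whereas Adgre1, Cd68, Csf1r, Clec4f, Vsig4, Timd4 and Lyz2 were not called.

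Bile duct markers summed to 94.2 to 116 CPM in AS and 206 to 313 CPM in SS (2 of 6 called higher). The 2 called were Cd24a and Prom1, whereas Krt19, Epcam, Sox9 and Spp1 had edgeR adjusted p of 0.871, 0.9025, 0.599 and 0.293. Krt19 had 10 to 26 counts and Epcam 13 to 43, against 594 to 1678 for Spp1, and Krt7 and Cftr were too low to be tested. Stellate cell markers summed to 129 to 149 and 209 to 346 CPM (2 of 8 called higher). Col1a2 and Lum were those called, whereas Lrat, Des, Reln, Acta2, Pdgfrb and Col1a1 had edgeR adjusted p of 0.997, 0.972, 0.662, 0.631, 0.453 and 0.133. Endothelial markers summed to 202 to 282 and 205 to 396 CPM (0 of 7 by edgeR, 2 at an unadjusted p under 0.05, 2 by DESeq2). Adipocyte markers summed to 27.9 to 32.5 CPM in AS and 36.6 to 57.9 CPM in SS, with Plin1 and Lep at 0 in all libraries. Most of these sums was Fabp4, with 182 to 760 counts, while Cidec had 7 to 91 and Adipoq, Cfd and Retn at most 9. Striated muscle markers, the usual partners of Cpt1b, summed to at most 7.79 CPM, in SS replicate 1, with Myh6 at 0. Female-biased liver genes summed to 3929.6 to 4179 CPM in AS and 1196 to 1897 CPM in SS, with 0 of 11 called by edgeR, 8 lower at an unadjusted p under 0.05 and 5 lower by DESeq2. Male-biased genes summed to 250.1 to 506 CPM in AS, highest in replicate 1, and 188 to 249.5 CPM in SS (0 of 8 called by edgeR, 2 lower at that p, 1 lower by DESeq2). The part of these cell types and lists in the lower values of the oxidation genes was not tested.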

How the data were processed

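HISAT2 (alignment), HTSeq (counting) and the build mm10 are named, per the submitters' processing notes; versions, annotation, strand setting and filters are not given in the sources used here. The authors deposited raw counts for 24421 symbols per library, 6670011 to 13700194 gene reads each, of which the 35 members took 0.776% to 1.03%. The 5 counter lines (no gene, ambiguous, low quality, unaligned, several alignments) held 66.7% to 78.5% of records and were left out. SS replicate 1 stood apart, with 53.95% of records in no gene against 40.7% to 43.9% in the other 5 libraries. Reads are not unique molecules.

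Genes were filtered with edgeR's filterByExpr (minimum count 10, total 15), leaving 12622. SS and AS were compared with edgeR 4.0.16 in R 4.3.3 (trimmed-mean factors, robust quasi-likelihood fit, two-sided F-test, Benjamini-Hochberg adjustment over all genes). The SE came from the F statistic. The procedure was tested on simulated counts, drawn independently for each library from the fitted dispersion trend. Such counts hold no outlying or unusually close libraries, so they give no error rates for these data. Exon lengths, positions and shared 50-base stretches came from GENCODE M21 on mm10, promoters from RefSeq. Read length is not given, so 50 bases is a choice. Alternatives were other scaling (median-ratio, upper-quartile, library totals), other filters, a replicate block, a non-robust fit, DESeq2 1.42.0, limma-voom 3.58.1 and fits without 1 or 2 libraries.

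The members and lists were chosen with earlier results of these data known. Values in every library are given for members called, members with separated groups whose larger mean reached 5 CPM, and 8 well known targets. For other pathway lists the called members or the lowest p, and central genes fixed by name, are given; some of the latter are not reported here.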

Additional observations from a re-analysis of the deposited data

How the results depend on the processing

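A missing call does not show equal levels. The number of genes called, 122, was 217 with no filter, 460 with the replicate block, 453 by DESeq2, 31 by limma-voom, 31 with AS replicates 2 and 3 summed, 662 omitting both AS replicate 1 and SS replicate 3, and 22 to 99 with 1 library left out. Members called, 1 (Acot3), became 0 with upper-quartile factors, library totals alone, limma-voom and AS replicates 2 and 3 summed, 2 (with Etfdh) omitting both AS replicate 1 and SS replicate 3, and 0 to 1 with 1 library left out. Other pathway genes called, 0, became 1 with library totals alone, 3 with no filter, 4 with the replicate block, 5 by DESeq2, 17 with both libraries left out, and 0 to 1 with 1 left out.

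The median of mitochondrial members was -0.21 with library totals alone, which moved the median of all genes from 0.082 to 0.36, and -0.30 with both libraries left out. The peroxisomal median was -0.24 with library totals alone. With 1 library left out these medians ran from -0.52 to -0.32 and from -0.66 to -0.38, and that of members at other sites from -0.43 to 0.022.

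Replicate numbers were not taken as pairs in the main fit, since the labels do not state a pairing. Deviations from the group means correlated at 0.050, -0.12 and 0.19 between same-numbered libraries. AS replicate 1 correlated best with SS replicate 2 (0.24) and AS replicate 3 with SS replicate 3. Such correlations cannot decide whether the libraries are paired. The replicate block gave Acot3 a log2 change of -1.41 and called the same member as the fit without it.

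Signs changed only for members that no fit called in either direction. With library totals alone Crat was at 0.27, Acot2 0.11, Acot1 0.21, Acot12 0.0064, Cyp4a14 0.14 and Vnn1 0.17. Under the replicate block Crat was at 0.052, Ppara -0.12, Acot1 0.092 and Vnn1 0.015, and with limma-voom Crat was at 0.063, Ppara -0.12 and Acot1 0.051. With 1 library left out the values ran from -0.46 to 0.45 for Cpt1a, -0.28 to 0.37 for Crat, -0.25 to 0.021 for Acot2, -0.79 to 1.44 for Pex11a, -0.65 to 0.39 for Ppara, -0.52 to 0.66 for Acot1, -0.39 to 0.0076 for Cyp4a14, -0.82 to 0.68 for Fgf21 and -0.46 to 0.50 for Vnn1. The sign turned without AS replicate 1 for Crat, Acot1, Cyp4a14, Fgf21 and Vnn1, without SS replicate 1 for Acot1, and without SS replicate 3 for Cpt1a, Crat, Acot2, Pex11a and Ppara. Omitting both AS replicate 1 and SS replicate 3, they were -0.55 for Cpt1a, 0.47 for Crat, 0.10 for Crot, -1.04 for Pex11a, -0.69 for Ppara, 0.32 for Acot1, 1.08 for Fgf21 and 0.42 for Vnn1. The cause was not tested.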
